A study of Mus musculus with 5 samples.

Results

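The matrix metalloproteases (Mmp genes), the tissue inhibitors of metalloproteases (Timp) and the related ADAM, ADAMTS and ADAMTS-like families were compared between ovaries of newborn Lhx8 null and wild type mice. Members were all probe sets with a single gene symbol made of the stem Mmp, Timp, Adam, Adamts or Adamtsl and a number, with an optional letter after it. There were 124 such probe sets for 70 genes, among 34945 probe sets with 1 symbol for 18193 genes. By stem these were 18 Mmp, 4 Timp, 28 Adam, 15 Adamts and 5 Adamtsl genes. Lhx8 null ovaries were measured on 3 arrays, numbered 1, 2 and 3, and wild type ovaries on 2, numbered 2 and 3. All were female, at postnatal day 0.5, on a C57/BL6/129SVEV hybrid background. The product of Lhx8 is a homeodomain protein that regulates transcription in oocytes. The sources used here do not say how the null allele was made. Each array carried RNA of 1 pool of 50 ovaries, so a replicate is a pool of whole organs and not an animal or a cell type.

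Metalloproteases are zinc enzymes that are made as inactive precursors and cut proteins of the extracellular matrix and of the cell surface. The MMPs cut collagens and other matrix proteins, the ADAMs are membrane proteins that shed the outer parts of growth factors and receptors, and the ADAMTS enzymes are secreted and cut proteoglycans and procollagens. ADAMTS-like proteins share the non-catalytic modules of the ADAMTS enzymes but have no protease domain, and the 4 TIMPs bind to the active sites of the proteases. In the ovary these genes are known for the remodelling of the matrix around follicles, at ovulation above all.

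The whole series sets the frame for these values. Lhx8 had signals of 332.6, 159 and 347.4 on the null arrays, against 6450.1 and 5223.1 on the wild type arrays. Values are array signals on a linear scale with a trimmed mean of 500 on every array, and differences are null minus wild type on the quantile normalised log2(signal + 16) scale. A gene is represented by its brightest probe set and was tested if its mean over all arrays was at or above 7.37 on that scale, a signal of about 150. A gene is called higher or lower where limma's two-sided test gave a Benjamini-Hochberg adjusted p below 0.05. Of the 10916 genes tested, 25.6% were called higher and 22.3% lower in null ovaries, with a median log2 difference of 0.04. Of all tested genes 47.8% were thus called in either direction. With each array centred on its median in place of quantile normalisation that median was -0.18, and 1720 genes were called higher and 3422 lower, against 2791 and 2429. Pairs of null arrays correlated at 0.964 to 0.977 and the wild type pair at 0.973, while pairs across groups reached 0.907 to 0.930. Hybridisation controls also differed by group, with BioC on average 2.12 times as bright on the null arrays as on the wild type arrays, and their part in the results was not tested. Of the fixed markers of the tissue, 7 of 7 germ cell genes fell and 6 of 7 granulosa cell genes fell in null ovaries. Germ cell markers summed to 3788.2 to 5545.4 on the null arrays, against 33650.8 to 34769.5 on the wild type arrays. The null means of Zp3 and Gdf9 were below the filter level, so that they were tested only through their wild type arrays. In these bulk samples fewer cells of a type and less RNA per cell cannot be told apart, and the same holds for more of either.

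Of the 70 genes, 30 were bright enough to be tested and 40 were not. Among the tested genes 19 were higher in null ovaries, 0 were lower and 11 were not called, and the share of all tested genes called was 25.6% higher and 22.3% lower. Of the 19, 10 rose by 2-fold or more, a size that 8.88% of all tested genes reached as higher and 8.13% as lower. At an unadjusted p under 0.05 in limma, 1 tested gene, Adam17, was lower. The median log2 difference of the tested members was 0.78, against 0.04 over all tested genes. For 21 of the 30 every null array lay above every wild type array and for 1 below, against 36.0% and 31.8% of all tested genes. The filter acts on the mean of all arrays. A wild type mean below it was found in 5 of the 30, so that they passed through the null arrays. In this group 4 were called (Adamts15, Adamts6, Adamtsl4 and Adam33) and Adamts20 was not. For the other 25 the wild type mean alone also reached the filter level, and 15 of these were called higher. In the fit of all 18193 genes with no filter, 21 of the 70 members were higher and 0 lower, against 15.8% and 15.2% of all genes (Adam17 and Adam1a were lower at an unadjusted p under 0.05). The median over all 70 was then 0.34, against -0.02 over all genes. With median centring 18 members were higher and 1, Adam17, lower, and the median of the tested members was 0.52. No called member changed sign under any scaling.

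Macrophage, stromal, endothelial and epithelial markers differed between groups in the same direction as the called members, all of which were higher. The counts that follow stand against 25.6% of all tested genes called higher and 22.3% called lower. Of the 10 stromal and smooth muscle markers 10 rose, and they summed to 118077.7 to 137899 on the null arrays, against 53045.1 to 58211 on the wild type arrays. Of 9 macrophage markers tested 8 rose (sums of 11003.7 to 12727.4 on the null arrays, against 3479.5 to 3715.9 on the wild type arrays) and of 8 endothelial markers 6 rose (sums of 8007.5 to 9050.3 on the null arrays, against 3227.1 to 4036.2 on the wild type arrays). All 5 oviduct and mesonephric epithelium markers rose, with sums of 9592.5 to 11890.9 on the null arrays, against 442.1 to 512 on the wild type arrays, as did all 4 surface mesothelium markers (sums of 17440.6 to 19402.1 on the null arrays, against 4629.7 to 4838.4 on the wild type arrays). Of 4 mast cell markers 2 rose (sums of 5203 to 8343 on the null arrays, against 4830.6 to 5079.3 on the wild type arrays). Of the 5 skeletal muscle markers only Acta1 was bright enough, and it rose. All 5 together summed to 348.5 to 1866.3 on the null arrays, against 150.3 to 163.9 on the wild type arrays. In the fit without the filter Tnnt3 (2.11) and Ckm (2.07) were also called higher and Myog lower (-1.30), while Myh3 overlapped between groups. The 4 cartilage and bone markers were dim in both groups, with sums of 171.4 to 224.8 on the null arrays, against 161.3 to 185.8 on the wild type arrays. The wild type means of Thy1, Plvap, Msln, Acta1 and all 5 oviduct and mesonephric epithelium markers were below the filter level. These markers were tested only through their null arrays. The part of the cell types named here in the differences of Mmp2, Mmp14, Timp2, Timp3 and the Adamts genes was not tested.

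**Figure D1:**
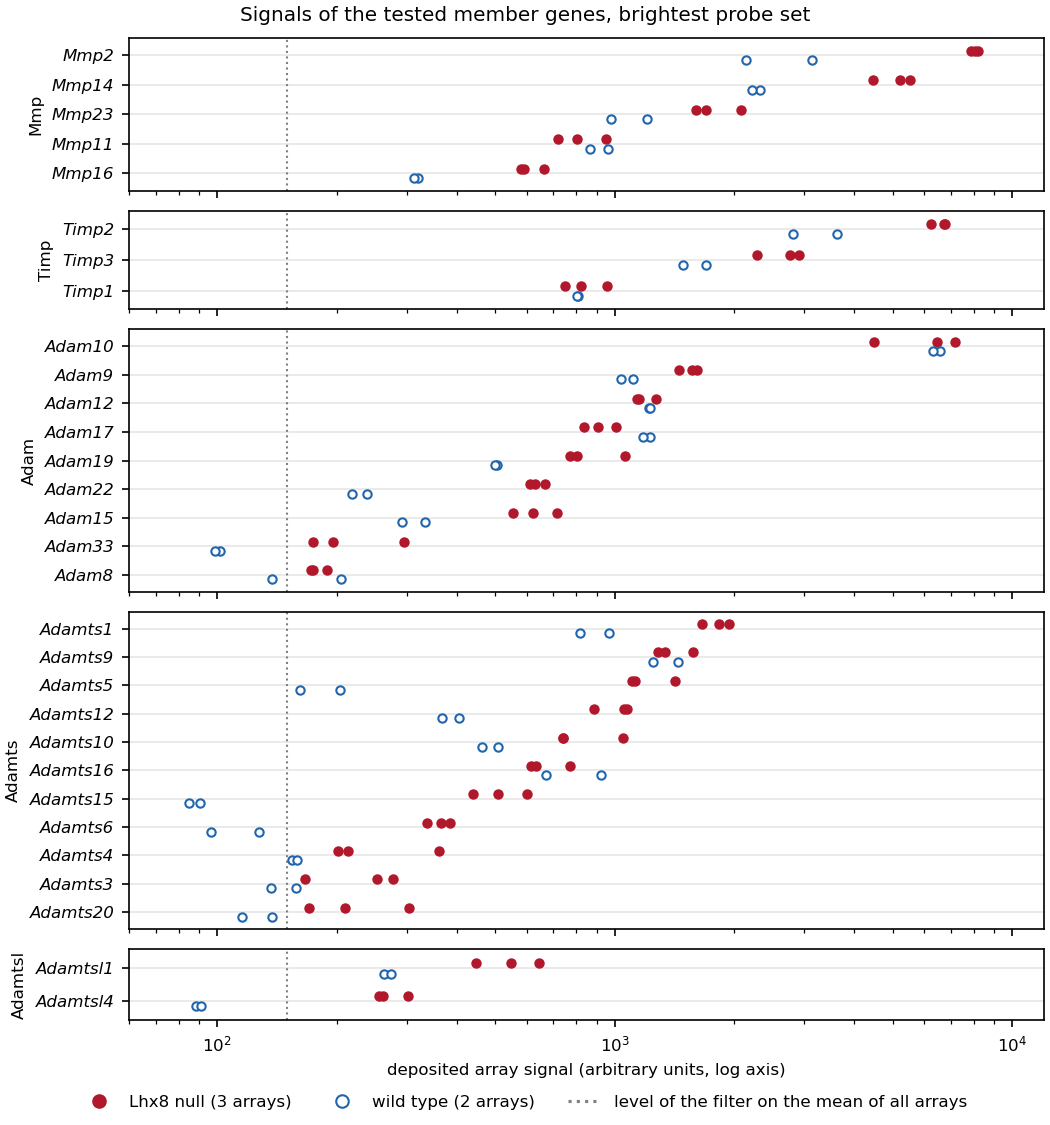
Deposited array signals (x axis, arbitrary units, log scale) of the 30 tested member genes, grouped by stem, with 3 Lhx8 null arrays as filled points and 2 wild type arrays as open points. The dotted line marks the filter level, a signal of about 150; the gap between filled and open points is widest in Adamts5 and Adamts15, while Timp1, Adam12 and Adamts9 have overlapping points.

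Of the matrix metalloprotease genes, 4 of the 5 tested rose in null ovaries, by 1.69- to 3.06-fold, against 25.6% of all tested genes called higher. Mmp2, which encodes gelatinase A and cuts basement membrane and denatured collagens, had signals of 8217.7, 7852.9 and 8058.9 in null pools 1, 2 and 3, compared with 3128.5 and 2139.9 in wild type pools 2 and 3. The null pools lay close together and far above both wild type pools. Its means were 8043 ± 183 (SD, n = 3) in null and 2634 ± 699 (SD, n = 2) in wild type ovaries (log2 difference 1.61, SE 0.16, adjusted p = 7.63e-05), and its other probe set gave 1.73. Mmp14 encodes a membrane-anchored collagenase that is also known to activate the precursor of MMP2 at the cell surface. It had signals of 4457.1, 5213.3 and 5530 on the null arrays, against 2313 and 2208.3 on the wild type arrays. Means were 5067 ± 551 (SD, n = 3) in null and 2261 ± 74 (SD, n = 2) in wild type ovaries (log2 difference 1.20, SE 0.11, adjusted p = 6.16e-05). The groups did not overlap. A second probe set of Mmp14 gave 1.26, and the dimmest one gave 0.38 with overlapping groups (adjusted p = 0.347 over all probe sets).

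Both other membrane-bound members tested also rose, with smaller differences. Mmp16, a second membrane-type enzyme, had signals of 663.5, 590.9 and 579.9 on the null arrays, against 320.5 and 313.4 on the wild type arrays (log2 difference 0.86, SE 0.15, adjusted p = 0.00184). Mmp23 encodes an unusual transmembrane member with its own cysteine-rich domains, and its signals were 2078.8, 1692.7 and 1601.3 on the null arrays, against 1204.7 and 976.5 on the wild type arrays (log2 difference 0.76, SE 0.16, adjusted p = 0.0043). Without wild type replicate 3 the adjusted p of Mmp23 was 0.0525 and its log2 difference 0.62. With its probe sets averaged Mmp16 was not called (0.46, adjusted p = 0.103). Mmp11, or stromelysin-3, which is activated inside the cell, had signals of 952.7, 802.9 and 720.6 on the null arrays, against 963.4 and 867.1 on the wild type arrays. Its groups overlapped, and the log2 difference of -0.12 had a 95% interval of -0.48 to 0.24 (adjusted p = 0.558).

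Of the 3 inhibitors tested, Timp2 and Timp3 rose and Timp1 did not pass, against 25.6% of all tested genes called higher. Timp2, whose protein inhibits MMPs and also bridges the precursor of MMP2 to MMP14, had signals of 6752.6, 6758.9 and 6245.2 in null pools 1, 2 and 3, compared with 3630.3 and 2815.1 in wild type pools 2 and 3. Means were 6586 ± 295 (SD, n = 3) in null and 3223 ± 576 (SD, n = 2) in wild type ovaries (log2 difference 1.03, SE 0.14, adjusted p = 0.00035). All null pools lay above both wild type pools, and the 5 probe sets of Timp2 above the filter level agreed, with log2 differences of 1.03 to 1.36. Timp3, an inhibitor that stays bound to the matrix and also acts on ADAM17 and on ADAMTS enzymes, had signals of 2906.4, 2278.8 and 2761.6 on the null arrays, against 1696.3 and 1486.9 on the wild type arrays. Means were 2649 ± 329 (SD, n = 3) in null and 1592 ± 148 (SD, n = 2) in wild type ovaries (log2 difference 0.79, SE 0.15, adjusted p = 0.00227). Its probe sets ranged more widely, at 1.25, 0.79, 0.57 and 0.20, and the last was not called. Timp1, a soluble inhibitor, had signals of 954.7, 751.4 and 823.8 on the null arrays, against 810.2 and 803.2 on the wild type arrays. The wild type values fell inside the range of the null values, and the log2 difference of 0.08 had a 95% interval of -0.25 to 0.42 (adjusted p = 0.678). Timp4 was dim on every array, at 10.5, 41 and 38.9 in null and 11.3 and 41.1 in wild type ovaries, and was not tested.

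Promoter sequence is shown for 3 members that rose and for Mmp10, a dim member described further on, because their promoters differ in the motifs they hold. Of the 70 members 41 matched an entry in the RefSeq promoter table of GRCm38.p6, and the 250 bases before the start of each gene were searched on both strands. The motifs were TGANTCA (the AP-1 site), TAATTA (a core read by many homeodomain proteins), GGGCGG (the GC box of SP1) and TATAAA (the TATA box). Capitals mark any match, and within these 4 promoters no match overlapped another. The stretches are chr14:54431348-54431597, plus strand for Mmp14, chr11:118355412-118355661, minus strand for Timp2, chr16:85803114-85803363, minus strand for Adamts1 and chr9:7502092-7502341, plus strand for Mmp10, each printed 5′ to 3′ along the gene.
Mmp14: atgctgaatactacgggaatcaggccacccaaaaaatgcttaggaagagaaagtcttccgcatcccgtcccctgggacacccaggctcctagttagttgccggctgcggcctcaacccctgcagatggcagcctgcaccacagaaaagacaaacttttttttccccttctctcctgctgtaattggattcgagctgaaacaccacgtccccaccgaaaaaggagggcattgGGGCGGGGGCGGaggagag
Timp2: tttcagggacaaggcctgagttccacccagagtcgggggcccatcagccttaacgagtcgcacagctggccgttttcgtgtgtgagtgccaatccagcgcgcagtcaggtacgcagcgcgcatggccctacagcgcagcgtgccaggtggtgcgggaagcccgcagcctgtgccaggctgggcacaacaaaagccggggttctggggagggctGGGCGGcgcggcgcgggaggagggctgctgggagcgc
Adamts1: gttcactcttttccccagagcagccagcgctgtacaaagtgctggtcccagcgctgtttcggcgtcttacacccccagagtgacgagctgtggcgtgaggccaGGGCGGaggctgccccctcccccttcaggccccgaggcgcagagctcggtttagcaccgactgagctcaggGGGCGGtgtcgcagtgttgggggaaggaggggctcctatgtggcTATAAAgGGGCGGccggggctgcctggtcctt
Mmp10: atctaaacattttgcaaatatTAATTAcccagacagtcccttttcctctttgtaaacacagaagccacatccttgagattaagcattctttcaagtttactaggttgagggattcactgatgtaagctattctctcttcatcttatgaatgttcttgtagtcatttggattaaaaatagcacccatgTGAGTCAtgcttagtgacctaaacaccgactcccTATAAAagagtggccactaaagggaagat

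The first 3 of these hold GC boxes, and the Mmp10 stretch holds none. Mmp14 has 2 GC boxes side by side, starting 19 and 13 bases before the start, and Timp2 has 1, at 37 bases before it. Adamts1 has 3 GC boxes, at 147, 76 and 25 bases, and a TATA box at 32 bases. Mmp10 has an AP-1 site at 63 bases, a TATA box at 29 bases and a TAATTA at 229 bases before the start. Of the 10 promoters of members called higher 0 held an AP-1 match, as did 0 of the 8 of members tested and not called and 8 of the 23 of members not tested, against 6.87% of 27025 promoters. The TATAAA match was found in 1 of 10, 0 of 8 and 10 of 23, against 13.0%, and GGGCGG in 6 of 10, 8 of 8 and 5 of 23, against 32.9%. TAATTA was found in 0 of 10, 0 of 8 and 2 of 23, against 4.90%. Median GC content was 63.8% in members called higher, 70.8% in members tested and not called and 42.0% in members not tested, against 52.0% over all promoters. These are matches of letters in a short window and were set against no binding data.

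The largest rises among the tested members were in Adamts genes. Of 11 tested, 6 were called higher, by 1.68- to 5.82-fold, and 5 were not called, against 25.6% of all tested genes called higher. Adamts5, known as aggrecanase-2 and as a protease of versican, had signals of 1105.9, 1415.1 and 1124.2 in null pools 1, 2 and 3, compared with 161.2 and 203.3 in wild type pools 2 and 3. Its means were 1215 ± 173 (SD, n = 3) in null and 182 ± 29.8 (SD, n = 2) in wild type ovaries (log2 difference 2.54, SE 0.18, adjusted p = 1.51e-05), with the null pools far above the wild type pools. The 3 probe sets of Adamts5 above the filter level were all called, at 2.54, 1.94 and 1.21. Adamts15, of the same group of proteoglycan-cutting enzymes, had signals of 601.8, 441.2 and 508.5 on the null arrays, against 85.1 and 90.7 on the wild type arrays. Means were 517 ± 80.7 (SD, n = 3) in null and 87.9 ± 3.96 (SD, n = 2) in wild type ovaries (log2 difference 2.20, SE 0.20, adjusted p = 5.13e-05). Its wild type signals were below the filter level and its null signals well above. Adamts1, a versican protease known in the mouse ovary for its part in ovulation, had signals of 1940.4, 1831.7 and 1653.4 on the null arrays, against 815.5 and 968.6 on the wild type arrays. Means were 1808 ± 145 (SD, n = 3) in null and 892 ± 108 (SD, n = 2) in wild type ovaries (log2 difference 1.06, SE 0.14, adjusted p = 0.000416). It had 1 probe set, and all null pools lay above both wild type pools.

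**Figure D2:**
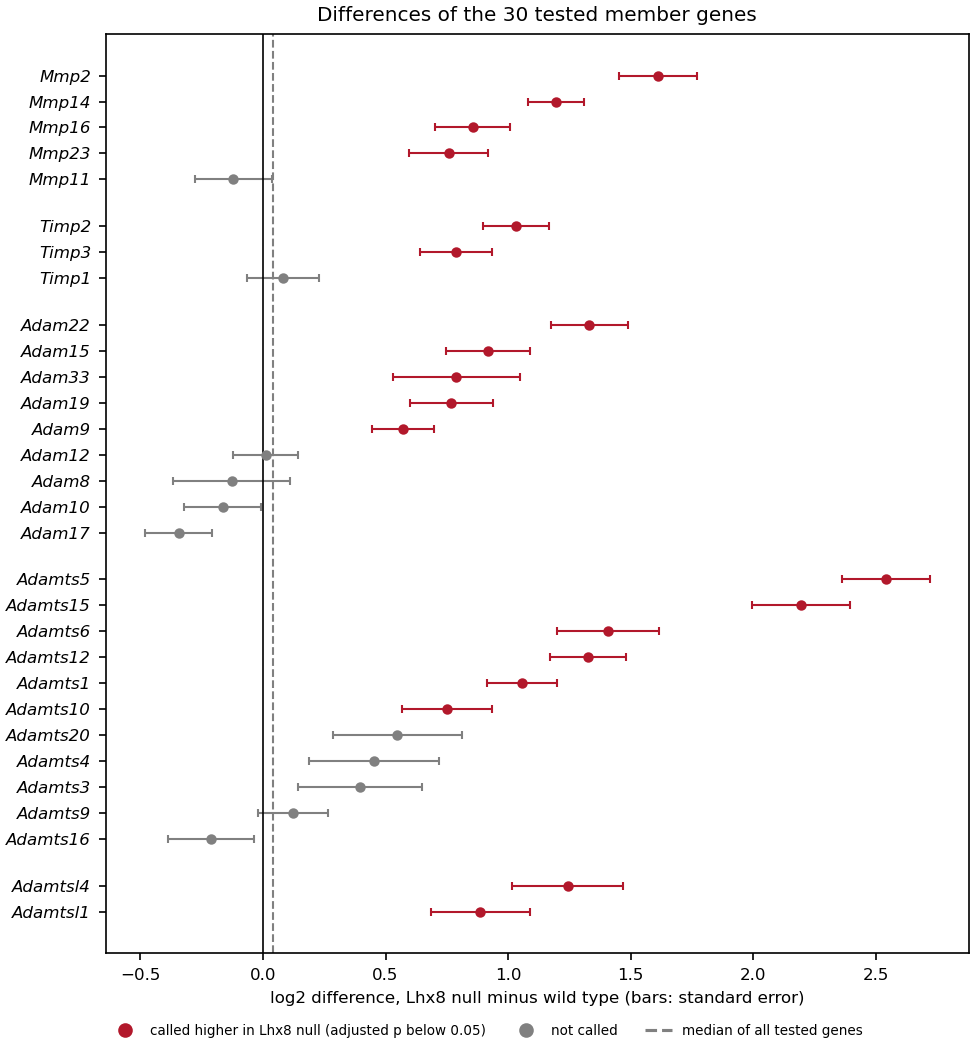
Log2 difference of Lhx8 null minus wild type (x axis) for the 30 tested member genes, grouped by stem, with standard errors as bars. Red points were called higher and grey points were not called; 19 genes are red, and the dashed line is the median of all tested genes, 0.04.

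Adamts12 encodes an enzyme known to cut cartilage oligomeric matrix protein, and its signals were 888.8, 1055.5 and 1071.6 on the null arrays, against 406.4 and 366.9 on the wild type arrays. Means were 1005 ± 101 (SD, n = 3) in null and 387 ± 27.9 (SD, n = 2) in wild type ovaries (log2 difference 1.33, SE 0.15, adjusted p = 0.000189). The groups were well apart. Adamts6, which has been linked to the fibrillin microfibrils as has Adamts10, had signals of 384.3, 365.9 and 336.8 on the null arrays, against 127.5 and 96.2 on the wild type arrays. Means were 362 ± 23.9 (SD, n = 3) in null and 112 ± 22.1 (SD, n = 2) in wild type ovaries (log2 difference 1.41, SE 0.21, adjusted p = 0.000663). The wild type signals of Adamts6 were below the filter level, so that it was tested only through its null arrays. A dimmer probe set of Adamts6 gave 1.34 and was called in the fit over all probe sets. Adamts10 had signals of 1049.5, 739 and 739.2 on the null arrays, against 507.3 and 462.8 on the wild type arrays (log2 difference 0.75, SE 0.18, adjusted p = 0.00873). The call for Adamts10 was lost without wild type replicate 3 (0.70, adjusted p = 0.0717) and with its probe sets averaged (0.55, adjusted p = 0.0939).

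The 5 Adamts genes not called were Adamts9, Adamts16, Adamts3, Adamts4 and Adamts20. Adamts9, a protease of versican, had signals of 1571.1, 1286.7 and 1339.2 on the null arrays, against 1440.3 and 1248.4 on the wild type arrays and a log2 difference of 0.12 (95% interval -0.20 to 0.45). Its groups overlapped. Adamts16 was the only one of the 5 with a negative value, -0.21 (95% interval -0.61 to 0.19). Adamts4, or aggrecanase-1, had signals of 361.9, 212.8 and 201.1 on the null arrays, against 154.1 and 159 on the wild type arrays. All null values were higher, and null replicate 1 stood well above the other null pools, with an SD of 0.41 between null arrays on the log2 scale, the widest of the tested members, and the log2 difference of 0.45 did not pass (adjusted p = 0.19). Adamts3, which processes procollagens, and Adamts20 had 0.40 and 0.55, also with null replicate 1 highest. In Adamts3 null replicate 3 was close to null replicate 1, at 252.7 against 277.4. Null replicate 1 was the highest null array for 18 of the 30 tested members, against 38.6% of all tested genes. Without that array 18 members were called higher and 1, Adam17, lower.

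Adamts1 and Adamts5 lie next to each other on chromosome 16 and both rose. Adamts15 and Adamts8 are likewise neighbours among protein-coding genes, on chromosome 9. Adamts8 was too dim to be tested, with signals of 137.2, 263.7 and 206.1 on the null arrays, against 71.6 and 96.3 on the wild type arrays, all null values being the higher ones. In the fit without the filter it had 0.86 (SE 0.36, adjusted p = 0.108).

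The Adamts-like genes tested, Adamtsl4 and Adamtsl1, both rose, against 25.6% of all tested genes called higher. Adamtsl4 encodes a protein of the fibrillin microfibrils, and its signals were 255.2, 302.7 and 261.3 on the null arrays, against 88.2 and 91.1 on the wild type arrays. Means were 273 ± 25.8 (SD, n = 3) in null and 89.7 ± 2.05 (SD, n = 2) in wild type ovaries (log2 difference 1.24, SE 0.23, adjusted p = 0.00202). The wild type signals of Adamtsl4 were below the filter level, so that it was tested only through its null arrays. Adamtsl1 had signals of 447.4, 646.2 and 549.3 on the null arrays, against 263.3 and 273.4 on the wild type arrays (log2 difference 0.89, SE 0.20, adjusted p = 0.00611), and its other probe sets gave 0.80 and 0.80 without passing. Adamtsl5, left out as dim, had 324.2, 171.7 and 239.8 on the null arrays, against 58.3 and 28.1 on the wild type arrays. In the fit without the filter it rose by 1.96 (SE 0.36, adjusted p = 0.00416), and its second probe set rose too, by 1.99. Adamtsl2 and Adamtsl3 overlapped between groups.

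Over all tested genes 25.6% were called higher and 22.3% lower, and the Adam genes are set against these shares. Of 9 Adam genes tested, 5 were called higher, by 1.48- to 2.52-fold, and 4 were not called. Adam22 encodes a member without protease activity that binds LGI proteins in the nervous system, and its signals were 612.8, 668.3 and 628.7 on the null arrays, against 238.6 and 218.6 on the wild type arrays. Means were 637 ± 28.6 (SD, n = 3) in null and 229 ± 14.1 (SD, n = 2) in wild type ovaries (log2 difference 1.33, SE 0.16, adjusted p = 0.000203). All null pools lay well above the wild type pools. A second probe set, no brighter than 115.9 anywhere, gave -0.27, and with both averaged Adam22 was not called (0.53, adjusted p = 0.127). Adam15, a membrane protease with an integrin-binding site, had signals of 623.9, 553.8 and 716.5 on the null arrays, against 332.4 and 290.9 on the wild type arrays (log2 difference 0.92, SE 0.17, adjusted p = 0.00228). The other probe sets of Adam15 were below the filter level. They gave 0.79, -0.22 and 0.97, and none was called in the fit over all probe sets. Adam19, known for shedding neuregulins, had 1059.6, 771.3 and 802.4 on the null arrays, against 506.9 and 498.4 on the wild type arrays (log2 difference 0.77, SE 0.17, adjusted p = 0.00533). A second, dimmer probe set of Adam19 gave 0.02, and with both averaged Adam19 was not called (0.39, adjusted p = 0.0702).

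Adam9, a widely expressed sheddase, rose least among the called members. Its signals were 1447.7, 1614.8 and 1563.3 on the null arrays, against 1108.6 and 1039.1 on the wild type arrays. Means were 1542 ± 85.6 (SD, n = 3) in null and 1074 ± 49.1 (SD, n = 2) in wild type ovaries (log2 difference 0.57, SE 0.13, adjusted p = 0.00566). The groups did not overlap, but with median centring its log2 difference was 0.27 and the call was lost (adjusted p = 0.193). Adam33, a mesenchymal member, had signals of 294.9, 173.8 and 195.1 on the null arrays, against 101.4 and 98.9 on the wild type arrays (log2 difference 0.79, SE 0.26, adjusted p = 0.0329), with null replicate 1 well above the others. Its call was lost without null replicate 3 (adjusted p = 0.0524), without wild type replicate 2 (adjusted p = 0.109), without wild type replicate 3 (adjusted p = 0.138), with the replicate number as a block (0.61, adjusted p = 0.0721) and in the fit with no filter (adjusted p = 0.0632). The wild type signals of Adam33 were below the filter level, so that it was tested only through its null arrays. Without null replicate 1 Adam33 fell below the filter and was not tested.

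The main sheddases, Adam10 and Adam17, did not rise. Adam10, the protease that starts the cleavage of NOTCH receptors after ligand binding, had signals of 4483, 6458.7 and 7187.4 in null pools 1, 2 and 3, compared with 6565.8 and 6310.9 in wild type pools 2 and 3 at its brightest probe set. Null replicate 1 was the lowest and null replicate 3 the highest of the 5 arrays, and the log2 difference of -0.16 had a 95% interval of -0.52 to 0.19 (adjusted p = 0.419). Its 2 next brightest probe sets were lower in null ovaries. The first of them had 1195.7, 1271.9 and 1402.2 on the null arrays, against 2782.8 and 3017.8 on the wild type arrays, a log2 difference of -1.11 (SE 0.12, adjusted p = 0.000612 over all probe sets). The other had -0.95 (SE 0.26, adjusted p = 0.0305). The sources used here do not say which part of the transcript each probe set reads. With the probe sets of Adam10 averaged the gene was called lower, at -0.51.

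Adam17, the protease that releases tumour necrosis factor and EGF receptor ligands, had signals of 1005.5, 836.7 and 906.9 on the null arrays, against 1226.3 and 1177.5 on the wild type arrays. Every null pool was below both wild type pools, and the log2 difference of -0.34 (95% interval -0.66 to -0.03) did not pass (adjusted p = 0.0665). Its other probe sets gave -0.40 and -0.59. Adam17 was called lower with the deposited scaling (-0.39, adjusted p = 0.0422), with median centring (-0.64, adjusted p = 0.00541), with its probe sets averaged (-0.44, adjusted p = 0.0385), without null replicate 1 (-0.41, adjusted p = 0.0301) and with the replicate number as a block (-0.41, adjusted p = 0.0365).

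The 2 probe sets of Adam12 differed. The brighter one had 1135.9, 1271.9 and 1153 on the null arrays, against 1217.5 and 1224.4 on the wild type arrays, a log2 difference of 0.01 (SE 0.13), with all arrays in one narrow range. The dimmer one had 342.8, 313.3 and 341.5 on the null arrays, against 777 and 679.8 on the wild type arrays, and fell by 1.13 (SE 0.16, adjusted p = 0.00185 over all probe sets). Adam12 encodes an active protease known from mesenchyme and muscle. Adam8, found on leukocytes, had signals near the filter level and overlapped between groups (-0.13, adjusted p = 0.688).

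**Figure D3:**
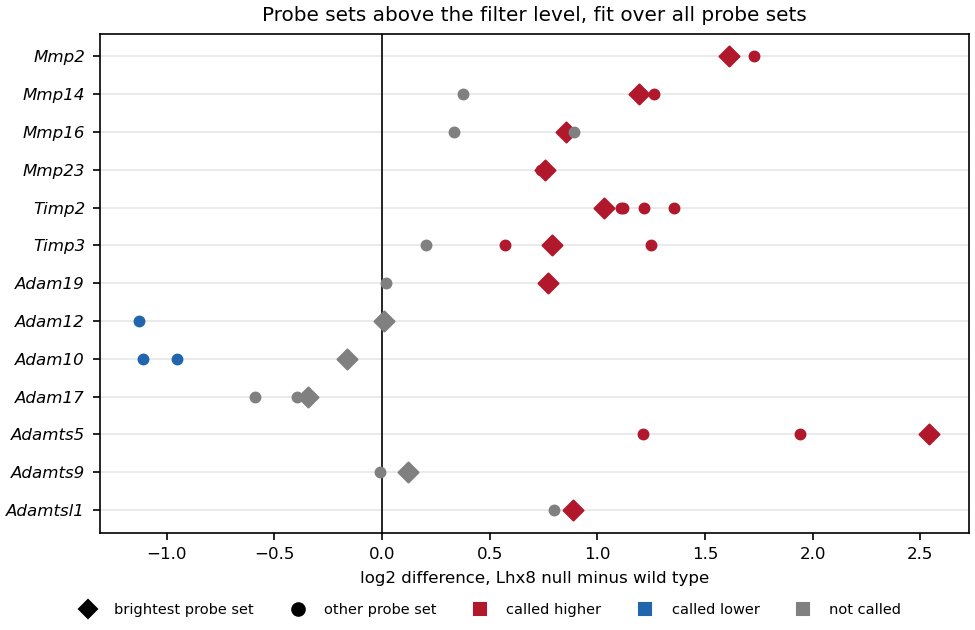
Log2 difference of Lhx8 null minus wild type (x axis) for every probe set above the filter level, in the 13 tested member genes with more than 1 such probe set, from the fit over all probe sets. Diamonds are the brightest probe set of a gene and circles the others, with red for called higher, blue for called lower and grey for not called; the blue points belong to Adam10 (2) and Adam12 (1).

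Over all 124 member probe sets, tested with no filter, 34 were called higher and 3 lower, against 11.9% and 12.9% of all probe sets with 1 symbol. The 30 tested members had 40 probe sets besides their brightest ones. Of these, 23 were above the filter level, and of the 23, 11 were called higher and 3 lower. The sign of the brightest probe set was shared by 21 of the 23, whatever the size of the difference. Of the 17 below the filter level 11 shared that sign, 1 was called higher and 0 lower. Without wild type replicate 3 only 20 member probe sets were called higher.

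Among the 40 members left out as dim, most gave little signal in either group. In 17 of them the mean signal was under 30 in both groups, among them 13 Adam genes. Adam2, Adam3, Adam24, Adam25, Adam26a and Adam34 are examples known in mice mainly from testis and sperm, and none of their signals exceeded 38.2. The 3 testis markers measured had overall means below the filter level, with sums of 370.5 to 513.3 on the null arrays, against 108.1 to 122.9 on the wild type arrays. That difference lay in Dmrt1, with 264.3, 293.7 and 387.8 on the null arrays, against 47.1 and 24.6 on the wild type arrays (2.50 without the filter, adjusted p = 0.00086), while Sox9 and Amh overlapped between groups. Its part in the values of the Adam genes was not tested.

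**Figure D4:**
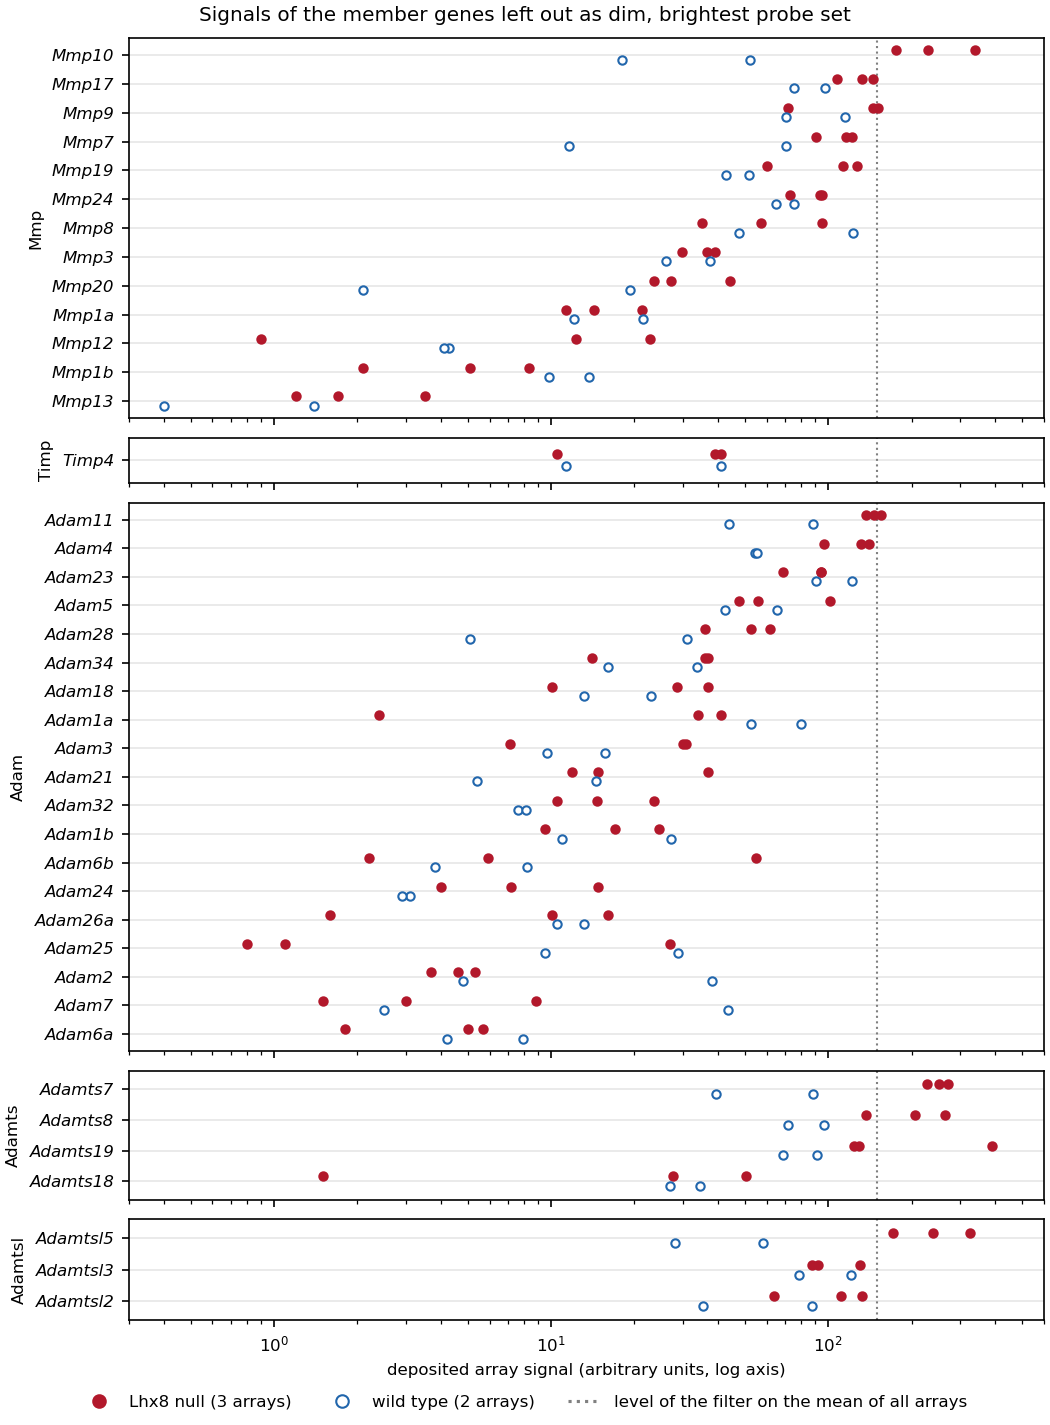
Deposited array signals (x axis, arbitrary units, log scale) of the 40 member genes left out as dim, grouped by stem, with 3 Lhx8 null arrays as filled points and 2 wild type arrays as open points. Most genes lie left of the dotted filter level with mixed points; Mmp10, Adamts7 and Adamtsl5 have all filled points to the right of it and all open points to the left.

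Of the 40 dim members 3 were called higher in the fit without the filter, namely Mmp10, Adamts7 and Adamtsl5, and 0 lower. The shares of all 18193 genes, bright and dim, in that fit were 15.8% higher and 15.2% lower. Mmp10, or stromelysin-2, had signals of 338.7, 229.7 and 175.2 in null pools 1, 2 and 3, compared with 52.4 and 18 in wild type pools 2 and 3. Every null pool was above the filter level and every wild type pool well below it, with a log2 difference of 2.21 (SE 0.40, adjusted p = 0.0039 over all genes). Adamts7, a close relative of Adamts12, had 270.1, 228.1 and 250.9 on the null arrays, against 88.5 and 39.3 on the wild type arrays and a log2 difference of 1.60 (SE 0.33, adjusted p = 0.00681). The wild type values of all 3 genes were well below the filter level, where differences on the log2(signal + 16) scale understate the fold. Adamts19 had 391.4, 129.7 and 124.2 on the null arrays, against 90.9 and 68.6 on the wild type arrays, where null replicate 1 alone stood high, and did not pass (0.90, adjusted p = 0.191).

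Mmp10 belongs to a run of 9 Mmp genes on chromosome 9 with at most 1 other protein-coding gene between neighbours, and none of the 9 was bright enough to be tested. The other 8 are the collagenases Mmp1a, Mmp1b, Mmp8 and Mmp13, stromelysin-1 (Mmp3), macrophage elastase (Mmp12), enamelysin (Mmp20) and matrilysin (Mmp7). Their signals lay between 0.4 and 122.6 on all arrays. Mmp7, an epithelial enzyme, had 90.2, 116.4 and 121.7 on the null arrays, against 11.6 and 70.6 on the wild type arrays. Its null values were all higher in the deposited signals but not after normalisation, the wild type pools were far apart, and the difference of 1.12 did not pass without the filter (adjusted p = 0.125). Mmp13 was between 0.4 and 3.5 on every array. In a similar way Adam9 lies in a run of 5 Adam genes on chromosome 8 with Adam18, Adam3, Adam5 and Adam32, and was the only one of them that was tested.

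In some other dim members, among them Adam11, Mmp17 and Mmp19, the deposited null signals lay above both wild type signals without passing. Of these 3 only Adam11 kept that order on the normalised scale. The deposited signals of Adam4, Adam24, Adam28, Adam32 and Mmp20 had the same order, which Adam4, Adam24 and Adam32 kept after normalisation. Adam11, like Adam22 a member without protease activity, had 155.4, 136.6 and 146.9 on the null arrays, against 88.1 and 44 on the wild type arrays, with 0.80 in the fit without the filter (adjusted p = 0.104). Adam23, the other relative of this kind, had 93.9, 68.6 and 94.5 on the null arrays, against 90.3 and 122.4 on the wild type arrays. Its groups overlapped in the deposited signals, while every null value was the lower one after normalisation (-0.51, adjusted p = 0.257). The membrane-anchored Mmp17 had 107.9, 145.6 and 132.3 on the null arrays, against 97.7 and 75.5 on the wild type arrays (0.25, adjusted p = 0.597), and Mmp19 had 60.2, 127.3 and 113.4 on the null arrays, against 42.8 and 51.7 on the wild type arrays (0.60, adjusted p = 0.296). These values lay below the filter level on all but 1 array. Adam1a, known from sperm in mice, went the other way, with 41, 34 and 2.4 on the null arrays, against 52.8 and 80.1 on the wild type arrays (-1.34, adjusted p = 0.0751).

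Mmp8 and Mmp9 are stored in the granules of neutrophils, and both varied within groups. Mmp9, gelatinase B, had 151, 145.6 and 71.4 on the null arrays, against 115.2 and 70.2 on the wild type arrays, and Mmp8 had 57.1, 95.1 and 35.2 on the null arrays, against 122.6 and 47.7 on the wild type arrays. In neither gene were the groups apart (0.09 and -0.56 without the filter). The 6 neutrophil markers were all bright enough to be tested and summed to 2287 to 35924.6 on the null arrays, against 10378.9 to 14183.8 on the wild type arrays. The null pools held both the lowest and the highest sum, with null replicate 3 the lowest. Among the null pools Mmp8 and Mmp9 were lowest there too. Mmp9 was about as low in wild type pool 3, at 70.2, and Mmp8 was highest in wild type pool 2, at 122.6. The part of neutrophils in these values was not tested. None of the 6 markers was called by limma, and 0 had an unadjusted p under 0.05.

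Genes that act with these proteases moved in both directions. Of 17 tested activators and regulators 8 rose and 2 fell, with a median log2 difference of 0.21, against 25.6% higher, 22.3% lower and a median of 0.04 over all tested genes. With median centring 5 of the 17 were higher and 4 lower. Without wild type replicate 3, 5 were higher, and the number lower was 4 without null replicate 1 and 1 without wild type replicate 2. A2m, the broad protease trap alpha-2-macroglobulin, had signals of 753, 1321.3 and 919.7 on the null arrays, against 87.5 and 37.6 on the wild type arrays (log2 difference 3.60, SE 0.33, adjusted p = 4.93e-05). Its wild type signals were below the filter level and its null signals well above. Serpinf1, which encodes a secreted serpin without inhibitory action, rose by 1.52 (SE 0.11), and Reck, a membrane-anchored inhibitor of MMPs, by 0.81 (SE 0.16). Of the proprotein convertases, Pcsk5 rose by 0.83 (SE 0.16) and Pcsk6 was lower at -1.39 (SE 0.16). The 2 iRhom genes, whose proteins carry ADAM17 to the cell surface, moved apart, an observation made after their values were seen. Rhbdf1 was called higher at 0.69 (SE 0.16) and Rhbdf2 lower at -1.58 (SE 0.39). Rhbdf2 had signals of 234.9, 158.1 and 69.6 on the null arrays, against 497.1 and 348.7 on the wild type arrays. Its null mean was below the filter level, so that it was tested only through its wild type arrays.

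Of the astacin proteases and their enhancers only 2 of 7 were bright enough, and 1 of these, Pcolce, rose by 0.57 (SE 0.13). The share of all tested genes called higher was 25.6%. Pcolce encodes an enhancer of procollagen C-proteinase. Mep1b, the gene of meprin beta, had 3.9, 5.8 and 11.9 on the null arrays, against 221.9 and 161 on the wild type arrays. It fell by 3.29 in the fit without the filter (SE 0.34, adjusted p = 0.000295), with wild type signals near the filter level and null signals close to 0.

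Genes of matrix proteins that ADAMTS enzymes and MMPs cut were mostly higher. Of 14 tested, 12 rose and 1 fell, with a median of 0.88, against 25.6% and 22.3% of all tested genes. Vcan, the gene of versican, which is a substrate of ADAMTS1, ADAMTS5, ADAMTS9 and ADAMTS15, had signals of 5769.8, 5284.6 and 6258.6 on the null arrays, against 506.5 and 727.7 on the wild type arrays (log2 difference 3.20, SE 0.17, adjusted p = 4.31e-06). All null pools lay far above both wild type pools. The fibronectin gene Fn1 rose by 2.52 (SE 0.13), the fibromodulin gene Fmod by 2.99 (SE 0.20), Postn by 1.81 (SE 0.10) and the nidogen gene Nid2 by 1.61 (SE 0.15). Thbs1, which encodes thrombospondin-1, was the one that fell, at -1.32 (SE 0.17). The list shares Postn, Dcn and Lum with the stromal markers.

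**Figure D5:**
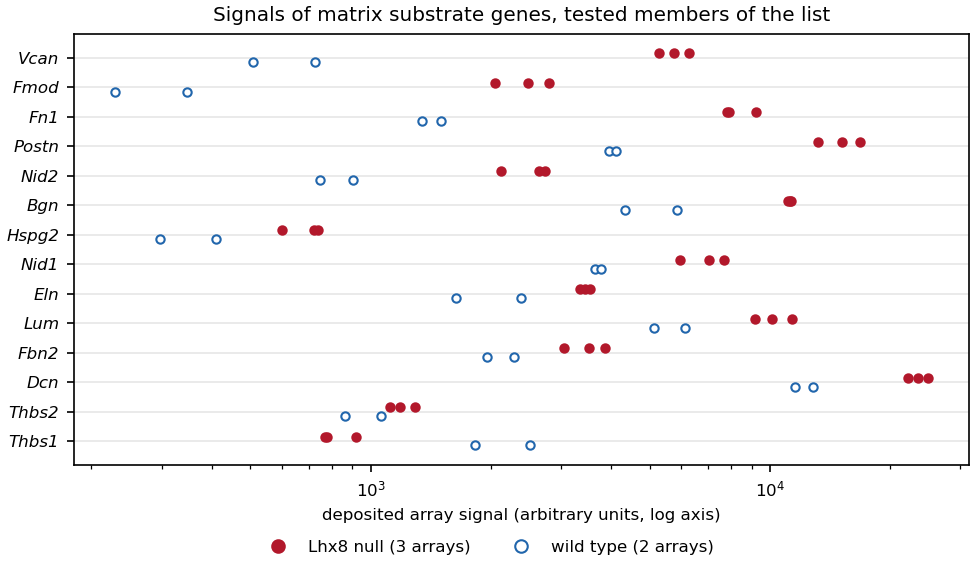
Deposited array signals (x axis, arbitrary units, log scale) of the 14 tested matrix substrate genes, with 3 Lhx8 null arrays as filled points and 2 wild type arrays as open points, ordered by log2 difference. The filled points lie to the right of the open ones in all genes but Thbs1, with the widest gaps in Vcan and Fmod.

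Of 15 tested cell surface substrates of the ADAM sheddases, 6 rose and 4 fell, with a median of 0.33, against 25.6% higher, 22.3% lower and a median of 0.04 over all tested genes. With median centring 3 were higher and 4 lower, and without wild type replicate 3 only 1 was higher and 3 lower. The receptor gene Notch1 rose by 1.07 (SE 0.22), with signals of 715.9, 486 and 447.3 on the null arrays, against 214.8 and 251.6 on the wild type arrays. Its ligand gene Jag1 was lower at -0.75 (SE 0.13), as were the syndecan gene Sdc1 at -1.23 (SE 0.25) and Kitl at -0.59 (SE 0.09). L1cam, a cell adhesion gene, rose by 0.99 (SE 0.23). The wild type means of L1cam and of Hbegf, also called higher, were below the filter level, so that both were tested only through their null arrays.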

How the data were processed

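RNA was measured on 5 one-colour arrays, 3 of Lhx8 null and 2 of wild type pools, grouped and numbered by the sample labels. The authors deposited 1 linear intensity for each probe set on each array, scaled so that every array has a 2% trimmed mean of 500. GCOS is named for wild type arrays in the submitters' processing notes, and no software is given for the others in the sources used here. The number of arrays limits the precision, and p-values measure the spread between pools.

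The arrays hold 45101 probe sets. Controls (64) were removed; 1 gene symbol was given for 34945 of the others, several for 932 (5 of them with a symbol of these families, not named) and none for 9160. Gene identifiers of 34741 were found in the RefSeq table, which changed 0 symbols. Intensities were put on the log2(signal + 16) scale and quantile normalised. The brightest probe set of each of 18193 genes was used, and genes in the lowest 40% by mean over all arrays were left out (7277). Differences were tested with limma 3.58.1 in R 4.3.3 (lmFit, eBayes with a trend, two-sided, Benjamini-Hochberg over the 10916 tested genes, threshold 0.05). A second fit took all probe sets with no filter. No set test was made.

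The members and lists were chosen with earlier results of these data known. Full values were to be given for the Timp genes, for members called at a log2 difference of 1 or more (10 genes) and for Mmp2, Mmp9, Mmp11, Mmp14, Adam10, Adam17, Adam9, Adam12, Adamts1 and Adamts5, and at most 5 genes with the smallest p were to be named from each companion list. Other genes were named after their values were seen. Scaling, added constant, filter, probe set rule, variance model and threshold were varied one at a time, each array was left out in turn, and replicate number was tried as a block. Python 3.11.15 and matplotlib 3.10.9 drew the figures.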

Additional observations from a re-analysis of the deposited data

How the results depend on the processing

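Of 405 differences of single members recomputed under 14 alternatives, 385 kept their direction and side of the threshold, 12 lost the call, 7 gained one and 1 reversed. Of the 19 called members 12 kept their call wherever they were tested. The reversal was Adam12, at -0.56 with its probe sets averaged, where a second probe set with a lower value enters. The count of members called higher was 11 with the stricter filter of 60%, by construction since fewer genes were tested. It was 16 with probe sets averaged, and 14 of these were among the 19. Adam19, Adam22, Adam33, Adamts10 and Mmp16 then left the count, and Adamts7 and Mmp10 entered it. With 1 null array left out the count was 18 to 19. The count of members called lower, 0 in the main analysis, was 1 with the deposited scaling, 1 with median centring and 3 with probe sets averaged (Adam10, Adam12 and Adam17), and 0 to 1 with 1 array left out. Over all genes 1720 were called higher with median centring and 1831 at a threshold of 0.01. With 1 array left out, 1846 to 2916 genes were called higher and 1543 to 2622 lower. Both lowest counts came without wild type replicate 3, where a single wild type pool is assumed to vary like the others. The alternatives for probe sets were chosen after seeing the data. Of member probe sets 6 were called lower with median centring, against 3, and with 1 array left out 20 to 35 were called higher and 2 to 5 lower. The companion lists together stayed within 1.5 times of 27 higher and 7 lower, but single lists moved more. With median centring the activators and regulators had 5 higher and 4 lower, and the sheddase substrates 3 higher; with no filter the astacin list had 2 higher and 1 lower. The sheddase substrates called higher numbered 2 at a threshold of 0.01, 3 with the filter of 60% and 1 without wild type replicate 3. The cause of these shifts was not tested where none is named. The added constant (1 or 64) and the variance model lost no member call.

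The labels do not say that a replicate number is shared between groups. The differences of replicates 2 and 3 correlated at -0.016 between the groups. With the replicate number as a block 18 members were called higher, Adam33 losing its call, and 1, Adam17, lower; 5 member probe sets and 5 activators and regulators were lower. Signals near the filter level limit what can be said of the 40 dim members, and with 3 against 2 pools small changes are missed.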
